A study of Homo sapiens with 40 samples.

Results

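The genomic regions at which the retinoblastoma protein Rb was called as bound in senescent cells over non-senescent cells were described here. The cells were EndoC-βH3, a human beta-cell line made from fetal pancreas that carries human telomerase reverse transcriptase and the SV40 Large T antigen, both between sites that a recombinase can remove, and a tamoxifen-activated Cre recombinase. Senescent cells had been treated for 3 weeks with 4-hydroxytamoxifen, which activates Cre and removes the immortalizing genes, and non-senescent cells had been left without it. Rb had been immunoprecipitated from crosslinked chromatin in 2 senescent and 2 non-senescent libraries. All regions of the senescence-specific Rb list were included, 2435 of the 133343 regions and peaks listed in the series. The list holds positions alone, with no height, p-value or count for either library, so the depth behind a region is unknown and no difference between libraries could be tested.

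Rb is a pocket protein that binds E2F transcription factors and holds down genes needed for DNA replication and mitosis. Phosphorylation by cyclin-dependent kinases releases it, and p16 and p21 block those kinases and so keep Rb active in senescent cells. The SV40 Large T antigen binds both Rb and p53 and takes them out of action, and it was present in all cells before excision. The related pocket proteins act within the DREAM complex, which reaches mitotic genes through a promoter element called CHR. All libraries came from this 1 line, and the labels do not say whether they came from separate cultures.

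The regions fell into 4 classes by place and sequence. A promoter region lay within 2 kb of the start site of a protein-coding transcript. An alpha-satellite-like region lay elsewhere and resembled itself at the length of the alpha satellite monomer, the tandem repeat unit of human centromeres. The other regions were divided by whether they overlapped an H3K27ac peak, the acetylated histone mark of active promoters and enhancers. There were 282 promoter regions (11.6% of the list, 95% Wilson interval 10.4% to 12.9%), 1103 alpha-satellite-like regions (45.3%, 43.3% to 47.3%), 94 distal regions with H3K27ac (3.86%) and 956 distal regions without it (39.3%). Such intervals cover counting error only. The promoter windows covered 4.49% of the genome outside gaps. The share of the genome that passes the self-match of the alpha-satellite-like class was not counted. Promoter regions were 21.2% of the 1332 regions outside alpha-satellite-like sequence. The median GC content of the 500 bp around the centre was 66.7% for promoter regions, 38.6% for alpha-satellite-like regions, 50.3% for distal regions with H3K27ac and 32.6% for distal regions without, and it was 40% for all 500 bp windows of the genome.

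**Figure D1:**
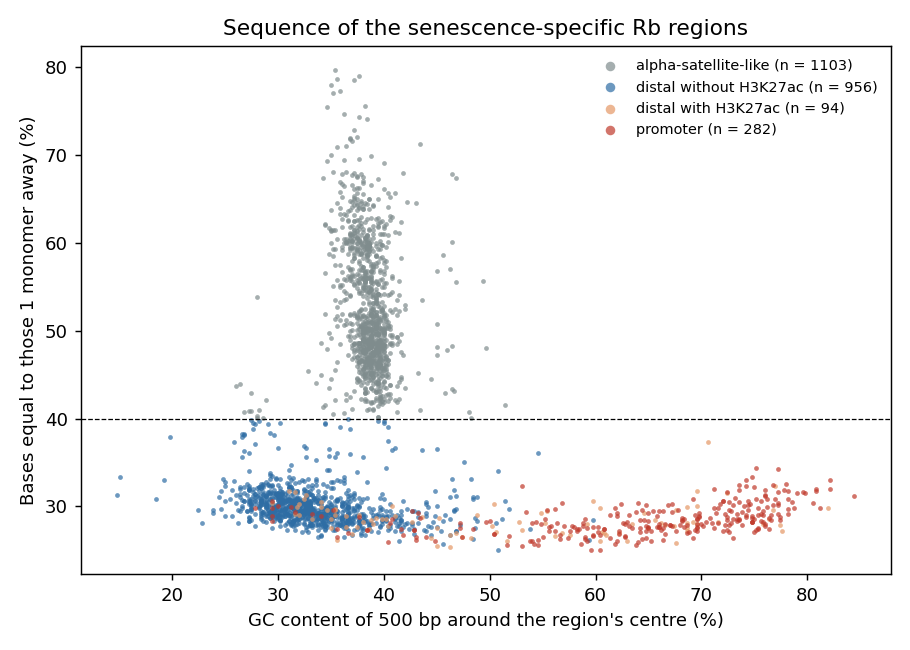
Each point is 1 Rb region, placed by the GC content of 500 bp around its centre (x axis, percent) and by the share of bases that equal the base 1 alpha satellite monomer away in the 2 kb around it (y axis, percent, best of 5 neighbouring distances), with the threshold of 40% as a dashed line. The 1103 alpha-satellite-like regions form a cloud above the line near 38.6% GC, the 956 distal regions without H3K27ac lie at the AT-rich end, and the promoter regions stretch to the GC-rich end.

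Example sequences from the list are shown first. The following windows of 30 bases come from Rb regions at genes of the cell cycle and of RNA splicing (hg38, on the strand of the gene's transcript), and capitals mark E2F or CHR letters. CDT1 loads the replicative helicase at origins, POLD3 is a subunit of DNA polymerase delta, CDK1 is the kinase that drives mitosis and CKS2 is its small binding partner. SF3B3 and SNRPB are parts of the spliceosome, and HNRNPH3 and RBM39 are splicing regulators.
CDT1, E2F, chr16:88803751-88803780: cccgcgggaaaTTTGGCGGgaaccgcgccc
POLD3, E2F, chr11:74592578-74592607: gagcaaagacgTTTCCCGCcggcgggagct
CDK1, E2F, chr10:60778339-60778368: tttcctctttcTTTCGCGCtctagccaccc
CDK1, CHR, chr10:60778397-60778426: ctgattggctgcTTTGAAagtctacgggct
CKS2, CHR, chr9:89310690-89310719: cttttactacttTTCAAAgtggacctaggc
SF3B3, E2F, chr16:70523992-70524021: ggacccgagacTTTGGCGGgggtcacgggc
SF3B3, E2F, chr16:70524064-70524093: ggatggttgagGCGCCAAAacggcttcctg
SNRPB, E2F, chr20:2470533-2470562: gctcggtctggGCGGGAAAgaccaggacct
HNRNPH3, CHR, chr10:68332153-68332182: acttctcccttcTTTGAActggaccccgcg
RBM39, CHR, chr20:35742855-35742884: ttccaaggttgtTTCAAAgctcgacagtgg
The E2F letters searched were TTTCGCGC, TTTGGCGC, TTTCCCGC, TTTGGCGG, TTTCCCGG and TTTGGGCG, and the CHR letters were TTTGAA and TTCGAA, each on both strands. None of the E2F words contains a CHR word. CHR letters also occur in the alpha satellite and chromosome 13 sequences printed below, where they were not marked. The middle of the E2F letters lay 23 bp upstream of the nearest start site at CDT1, 12 bp upstream at POLD3 and 23 bp downstream at CDK1, and the CHR letters at CDK1 lay 81 bp downstream of it. The CHR letters at CKS2 lay 490 bp upstream.

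Whole Rb regions were read for promoters where the region overlapped no exon. The region at MEF2D, a transcription factor of muscle and neurons, and that at NR3C1, the glucocorticoid receptor gene, both lay upstream of a start site inside strong H3K27ac peaks and held neither E2F nor CHR letters. They are shown on the strand of the gene as examples of the larger number of promoter regions without these letters.
MEF2D, chr1:156501236-156501470: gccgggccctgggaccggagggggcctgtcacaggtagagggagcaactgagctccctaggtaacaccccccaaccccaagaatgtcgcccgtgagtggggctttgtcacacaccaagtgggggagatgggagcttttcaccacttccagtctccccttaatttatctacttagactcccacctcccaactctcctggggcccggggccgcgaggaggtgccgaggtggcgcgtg
NR3C1, chr5:143405745-143405870: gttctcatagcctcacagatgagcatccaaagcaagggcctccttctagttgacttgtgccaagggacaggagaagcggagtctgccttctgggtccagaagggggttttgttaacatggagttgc
The centre of the MEF2D region was 574 bp and that of the NR3C1 region 485 bp upstream of the start site.

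An alpha-satellite-like region of 634 bp at chr19:25088610-25089243 shows the repeat. Its first units follow, on the plus strand, with capitals marking the CENP-B box, the site bound by the centromere protein CENP-B.
Unit 1, chr19:25088610-25088780: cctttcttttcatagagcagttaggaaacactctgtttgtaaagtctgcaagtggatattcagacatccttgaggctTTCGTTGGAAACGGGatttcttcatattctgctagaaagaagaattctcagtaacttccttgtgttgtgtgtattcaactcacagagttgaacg
Unit 2, chr19:25088779-25088949: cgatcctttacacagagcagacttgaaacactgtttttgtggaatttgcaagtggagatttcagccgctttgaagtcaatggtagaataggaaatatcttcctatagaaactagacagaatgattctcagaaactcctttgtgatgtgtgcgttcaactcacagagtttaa
Unit 3, chr19:25088950-25089120: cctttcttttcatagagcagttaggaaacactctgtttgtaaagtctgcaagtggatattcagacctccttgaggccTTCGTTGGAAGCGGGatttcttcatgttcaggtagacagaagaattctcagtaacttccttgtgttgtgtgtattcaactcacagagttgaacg
Compared position by position without gaps, unit 1 matched unit 2, which starts 169 bp after it, at 49.1% of bases. It matched unit 3, which starts 340 bp after it, at 95.9%. No alignment with gaps was made, so 49.1% can understate how alike units 1 and 2 are. Unit 3 thus repeated unit 1 more closely than unit 2 did, and the box was found in units 1 and 3. The 31 bases at the centre of this region occur 5505 times in hg38.

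A region of 209 bp in a gene-poor stretch of chromosome 13 stands for the distal regions without H3K27ac. It is AT-rich, with 27.3% GC, and the nearest coding start site was 813662 bp away.
Chromosome 13, chr13:64646715-64646923: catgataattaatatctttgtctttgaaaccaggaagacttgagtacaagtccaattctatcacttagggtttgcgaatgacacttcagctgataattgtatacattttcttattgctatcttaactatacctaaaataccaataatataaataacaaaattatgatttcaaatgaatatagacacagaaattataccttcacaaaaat

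Promoter regions lay close to start sites and slightly inside genes. The centre was at a median of 78 bp downstream of the nearest coding start site (quartiles 133.75 bp upstream and 225 bp downstream). It was downstream in 173 of 282 regions and upstream in 109. The region covered the start site itself in 93 (33.0%) and lay within 500 bp of it in 251 (89.0%). Of the promoter regions, 276 (97.9%) had a central 31-base sequence that occurs once in hg38. A promoter rich in CpG was defined by more than 50% GC and an observed over expected CpG ratio above 0.6 in 500 bp. By that definition 229 of the regions (81.2%) were CpG-rich, against 67.8% of all 19688 canonical coding start sites and 85.7% of those with an H3K27ac peak within 2 kb. The share in the Rb regions thus lay between these values.

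**Figure D2:**
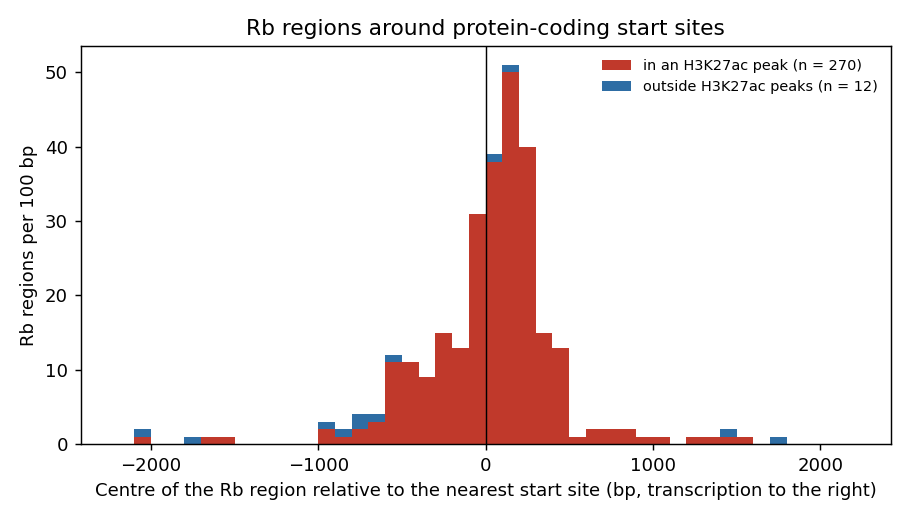
Bars give the number of promoter Rb regions per 100 bp (y axis) by the distance of the region's centre from the nearest coding start site (x axis, bp, with transcription to the right), for 270 regions in an H3K27ac peak and 12 outside. The highest bars lie just downstream of the start site, and regions outside H3K27ac peaks are scattered over the window.

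Nearly all promoter regions lay in H3K27ac peaks. The peaks were listed for both states together, so a peak does not by itself show the mark in senescent cells. Start sites and genes called acetylated below are those with such a peak within 2 kb. An H3K27ac peak overlapped 270 of 282 (95.7%, 92.7% to 97.5%), and the centre of the region was inside a peak in the same number. Peaks covered 27.9% of all bases within 2 kb of coding start sites and 41.8% of bases within 500 bp of them. Of the 251 regions within 500 bp of a start site, 248 (98.8%) had their centre in a peak. Seen from the peaks, 0.691% of all 51489 H3K27ac peaks and 1.93% of the 14007 peaks near a coding start site overlapped an Rb region. The peaks that met promoter Rb regions were larger than most. Their authors' mean count, the mean over the 6 H3K27ac libraries of both states, had a median of 1178, against 447.9 for all peaks near start sites. They were also wider, with a median of 3618.5 bp against 2716 bp, and the median of the mean count per kb was 316 against 152.

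The 282 promoter regions lay at 308 genes, 1.57% of 19663 protein-coding genes. Among the 13059 genes with an H3K27ac peak at a start site, 304 (2.33%) had an Rb region, and among the 6604 genes without, 4 (0.0606%) did. In 34 regions the window reached the start sites of more than 1 coding gene, as at the HDLBP and SEPTIN2 pair, so the gene cannot be told from the position.

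The 12 promoter regions outside H3K27ac peaks differed from the rest in sequence. Their median GC content was 33.4% (29.4% to 43.4%), against 67.4% for the promoter regions in a peak, which is close to that of the distal regions without H3K27ac. They lay at TEX50, PTPRC, RAB28, CCNI, CPLANE1, PLEKHA5, AGAP2, SLC16A7, ZNF430, ZNF217 and SYCP2, with 2 of them at RAB28. PTPRC encodes CD45, the phosphatase of blood cells, and its region began 1350 bp from the start site and lay outside any H3K27ac peak. Of the 12, the region at SYCP2, a protein of the meiotic chromosome axis, was the only one to cover a start site. These genes were named because of that small count, after their positions were seen.

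The genes that carried Rb were next compared with groups of genes. Genes of DNA replication and the G1/S transition had an Rb region in 2 of 72 cases (2.78%) and genes of the G2/M phase in 2 of 78 (2.56%). None of the 33 genes of Rb, E2F and DREAM themselves did. Over all 183 proliferation genes it was 4 (2.19%), which is near the 1.57% of all genes and the 2.33% of acetylated genes. Of these 183 genes, 180 had an H3K27ac peak at a start site.

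At CDT1 a region of 152 bp at chr16:88803757-88803908 covered a start site, and its H3K27ac peak had an authors' mean count of 377. At POLD3 a region of 248 bp at chr11:74592488-74592735 covered the start site in a peak of 569. At CDK1 a region of 269 bp at chr10:60778193-60778461 covered the start site in a peak of 408, and it held the E2F and the CHR letters printed above. At CKS2 a region of 423 bp at chr9:89310318-89310740 ended 455 bp upstream of a start site in a peak of 2093. The CDT1 and CDK1 peaks were below the median of 447.9 for peaks near start sites, and the CKS2 peak was above the median of 1178 for peaks that met promoter Rb regions.

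RNA splicing factors had an Rb region in 6 of 70 genes (8.57%). All 70 had an H3K27ac peak at a start site, so the matching share is the 2.33% of acetylated genes. The 6 were SRSF6, HNRNPH3, SF3B3, SNRPB, DDX17 and RBM39. At SRSF6, HNRNPH3 and SF3B3 the window also reached a start site of another coding gene, PBLD at HNRNPH3 and COG4 at SF3B3. For these regions the gene cannot be told from the position. SRSF6 is an SR protein, and its region of 255 bp at chr20:43457924-43458178 covered a start site in a peak with a mean count of 2852. At HNRNPH3 a region of 361 bp at chr10:68332106-68332466 covered a start site in a peak of 2455. At SF3B3, a subunit of the SF3b complex of U2 snRNP, a region of 263 bp at chr16:70523905-70524167 began 12 bp from a start site in a peak of 1291. At SNRPB, which encodes the core Sm protein B, a region of 315 bp at chr20:2470427-2470741 was 48 bp from a start site in a peak of 1449. DDX17 is an RNA helicase, and its region of 360 bp at chr22:38505869-38506228 was 83 bp from a start site in a peak of 3179. RBM39 had a pair of regions on either side of its start site, chr20:35741946-35742176 downstream and chr20:35742721-35742945 upstream, in a single peak of 3951. For all 6 genes the H3K27ac peak exceeded the 1178 median of peaks that met promoter Rb regions. The group was fixed with earlier results of these data known, and 6 genes are few.

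Other groups had 0 or 1 gene, at group sizes where the 1.57% of all genes or the 2.33% of acetylated genes also comes to few. Cytosolic ribosomal protein genes (79 genes) and mitochondrial respiratory chain genes (70 genes) had none, and all had acetylated start sites. The 45 genes of the senescence-associated secretory phenotype had none either, and 12 of them had acetylated start sites. Of 35 p53 target genes only PERP, a desmosome-associated p53 effector, had a region, 347 bp wide over its start site at chr6:138107169-138107515, with both an H3K27ac peak (mean count 1488) and a CTCF peak (25.8). Of 61 beta-cell identity and secretion genes only PCSK2 had one, the proprotein convertase that processes proinsulin and proglucagon. It spanned a start site at chr20:17226903-17227124, in an H3K27ac peak of 2017. Of 58 interferon-stimulated genes only EPSTI1 had one, of 72 bp at chr13:42992609-42992680, 368 bp upstream of a start site.

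**Figure D3:**
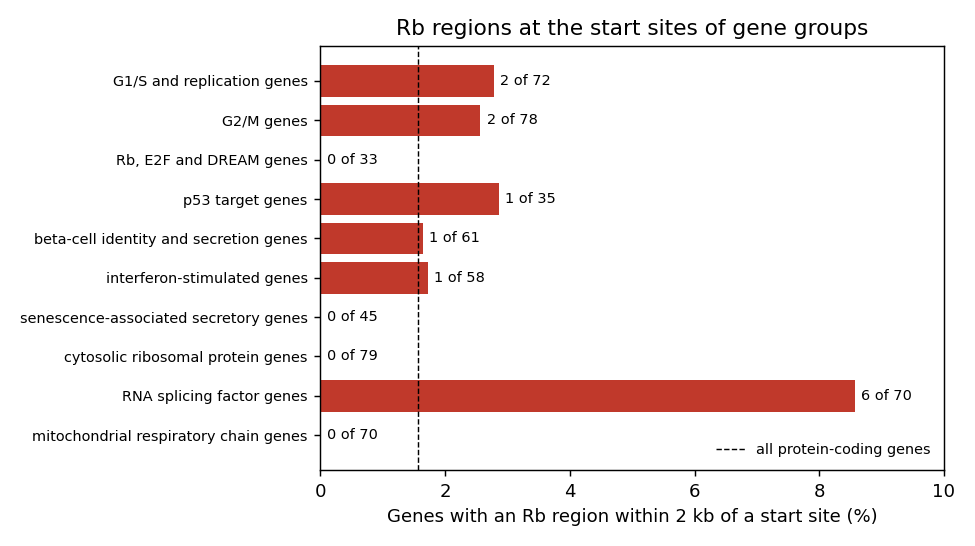
Bars give the percent of genes in each group with an Rb region within 2 kb of a start site (x axis, percent), with the number of genes beside each bar, and the dashed line is the 1.57% of all protein-coding genes. RNA splicing factors stand at 8.57% (6 of 70) and the other groups plotted lie between 0 and 2.86%.

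The cell type was checked on H3K27ac, since the Rb list cannot show it. All 9 beta-cell markers had an acetylated start site, with authors' mean counts of 3078 at INS, 10149 at PDX1 and 13804 at NKX2-2, but only 43.6 at MAFA. Of 15 markers of other pancreatic and blood cells, 3 did (CPA1 at 1498, KRT19 at 913 and CD68 at 3544), and the other 12, which include PTPRC, PECAM1, COL1A1 and ALB, had no peak. No beta-cell marker had an Rb region, and of the other markers only PTPRC did.

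The widest promoter regions were at genes of varied function. The 15 widest ranged down from 949 bp at KCTD3 (chr1:215567169-215568117, over the start site, H3K27ac mean count 4021), an adaptor protein of ion channels. HDGFL3 had 887 bp at chr15:83206982-83207868, also over its start site. NR4A2, an orphan nuclear receptor, had 757 bp at chr2:156332455-156333211 over a start site and a further region of 287 bp at chr2:156342026-156342312, both in a single peak of 6504. ABL1, a tyrosine kinase, had 693 bp at chr9:130834983-130835675 with E2F letters in it. The others of the widest set were at MRPL23, PCBP1, C14orf39, FBXL5, MYO5C, TLK2, TMEM62, CUL1, ZNF608 and UNC50, from 679 bp down to 525 bp, and a gene on a sex chromosome is left out here. PCBP1 is an RNA-binding protein, TLK2 a kinase of chromatin assembly, and CUL1 and FBXL5 are parts of SCF ubiquitin ligases. Besides NR4A2, RAB28 and RBM39, 2 regions were found at BRINP3, FAM174B, RAP1GDS1, YWHAZ and ZNF608. The pair at BRINP3, 1512 bp and 883 bp downstream of a start site, was AT-rich (27.8% and 34% GC) yet lay in an H3K27ac peak of 7906.

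Among promoter regions outside the gene groups, the widest set and the pairs, the H3K27ac peaks with the highest authors' mean counts were at PER2, a repressor of the circadian clock, with an authors' mean count of 22139, and at PTMA, the prothymosin gene, with 11171. Both regions covered a start site, at chr2:238288455-238288692 and chr2:231707596-231707929. The next were SCARB2, a lysosomal membrane protein (10299), MEF2D (7015), CAMK2N1, an inhibitor of CaM kinase (5623), SEPTIN2 (4790), NR3C1 (4599), KMT2E (4501), GZF1 (4272) and RCAN3 (4152). The SCARB2 region was only 34 bp wide, and KMT2E, an MLL-family protein, had its region 1387 bp upstream of a start site with E2F letters.

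The share of regions with E2F letters was set beside that of promoters in general. E2F letters were found in 31 of 282 promoter regions as listed (10.99%, 7.85% to 15.2%) and in 27 (9.57%) when each region was set to 300 bp around its centre. In the 300 bp RefSeq promoters (GRCh38.p14) of 248 genes with an Rb region they were found in 24 (9.68%, 6.59% to 14.0%). The share was 8.81% in promoters of 10556 genes with an acetylated start site and 7.10% in all 15843 promoters. The same letters were in 50 of 152 promoters of the listed proliferation genes (32.9%, 25.9% to 40.7%), so the search does find them where they are known to occur. CHR letters were in 24 promoter regions at 300 bp (8.51%) and in 12.1% of the RefSeq promoters of genes with an Rb region, against 11.2% of promoters of acetylated genes, 13.5% of all promoters and 34.9% of those of proliferation genes. At 500 bp they were in 17.7% of promoter regions and 17.8% of canonical start sites. At that length E2F letters were in 15.6% of promoter regions (11.8% to 20.3%) and 9.85% of canonical start sites, with or without an H3K27ac peak. Among the genes named by rule, E2F letters were in a region at CDT1, POLD3, CDK1, SF3B3, SNRPB, ABL1, FBXL5, KMT2E and FAM174B. Most of the 31 promoter regions with these letters lay at other genes, such as ETV3, INPP1, TCF12 and HPRT1. In the other classes E2F letters were in 0.181% of alpha-satellite-like regions, 0.523% of distal regions without H3K27ac and 4.26% of those with it. CHR letters at 300 bp were in 67.5%, 41.3% and 21.3% of these classes in the same order. They were thus more common there than in promoter regions.

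CTCF, the insulator protein of chromatin loops, was found at part of the promoter regions. A CTCF peak overlapped 147 regions of the list (6.04%), and 0.286% of 51457 CTCF peaks and 0.768% of the 11061 near coding start sites overlapped an Rb region. Of promoter regions, 84 (29.8%) overlapped one, and all 84 also overlapped an H3K27ac peak. Within 500 bp of a start site, 70 of 251 region centres (27.9%) were inside a CTCF peak, and CTCF peaks covered 25.6% of the bases of H3K27ac peaks in those windows. This is a share near the background. Alpha-satellite-like regions overlapped a CTCF peak in 8 cases (0.725%, 0.368% to 1.42%), all with low counts (median authors' mean count 5.76, against 58.6 for all CTCF peaks). Of the distal regions without H3K27ac, 30 (3.14%, 2.21% to 4.44%) did. The centre was inside a CTCF peak in 28 of the 956 (2.93%), against the 1.72% of the genome that CTCF peaks cover. The 30 peaks that overlapped these regions were strong, with a median authors' mean count of 268.

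**Figure D4:**
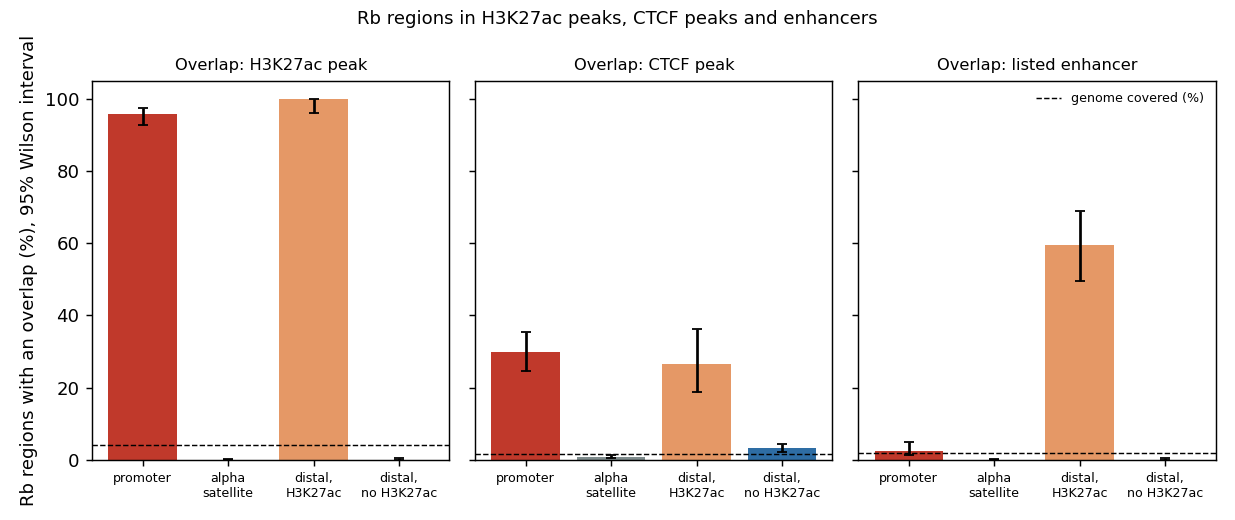
Bars give the percent of Rb regions in each class that overlap an H3K27ac peak, a CTCF peak or an enhancer of either list (y axis, percent), with 95% Wilson intervals, and dashed lines mark the percent of the genome each feature covers. The distal classes were defined by H3K27ac, so their bars there are 100% and 0 by definition, and enhancers were defined with H3K27ac too, so the enhancer bars of both distal classes (59.6% and 0) follow in part from it. Of promoter regions, 95.7% overlap H3K27ac.

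The 94 distal regions with H3K27ac were in introns (35), exons (23) or between genes (36), at a median of 42357.5 bp from a coding start site. Listed enhancers, which the authors defined by H3K27ac and H3K4me1 outside promoters, overlapped 56 of them (59.6%) and 7 promoter regions. H3K27ac outside promoters is part of how both the class and the enhancers were defined, so the matching background is that mark itself. The centre was in an enhancer in 55 of the 94 regions (58.5%), and enhancers covered 59.9% of the bases of H3K27ac peaks outside promoter windows, which is a share near the background. Of all 63 regions, 54 were in the list of senescent cells, 58 in that of non-senescent cells and 49 in both, so 5 were in the senescent list alone and 9 in the non-senescent list alone. An Rb region was in 0.398% of the 13076 enhancers of senescent cells and in 0.376% of the 14886 of non-senescent cells. Of the enhancers with no partner in the other list, 0.187% (5 of 2680) and 0.16% (7 of 4371) held one. The difference between the lists was not tested. Start sites of any annotated transcript were within 2 kb of 35 of the 94 regions, 23 of them of long non-coding RNAs. At 18 of the 94 there was neither a listed enhancer nor a start site.

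By the authors' mean count, the highest of these peaks lay between 144122 bp and 148186 bp from the nearest annotated start of ASXL3, a Polycomb-associated gene, with a mean count of 14597 and a pair of Rb regions (chr18:33749763-33749777 and chr18:33753827-33754229). Next came a region near TEX44 (6458), one inside MNT (6455), a repressor of MYC target genes, 98 bp from a start of another of its transcripts, one inside AHRR (6037), a repressor of the aryl hydrocarbon receptor, and one 193 bp from the start of the long non-coding RNA MRPL23-AS1 (5906). NKX2-2, a transcription factor of beta cells, was the nearest coding gene of a region of 188 bp at chr20:21564799-21564986, 50735 bp away, in an enhancer of the non-senescent list alone (H3K27ac mean count 3430). These were chosen after their values were seen.

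The alpha-satellite-like regions were chosen by their sequence alone, with no annotation of centromeres or repeats. The self-match at the length of 1 monomer chose these 1103 regions, and it had a median of 50.8% of bases in them and of 29.4% in the 1332 other regions. The values just inside and just outside the threshold were 40.02% and 39.9%. At the length of a pair of monomers the median was 58.9%, and the best match was at the pair in 598 regions and at the monomer in 406. The threshold of 40% was set after the values were seen, 178 regions lay from 35% to 45%, and with a threshold of 50% the class would hold 608 regions (24.97% of the list), fewer than the 956 distal regions without H3K27ac. In 12 of the 1103 the GC content was under 30%. A CENP-B box was in 627 of them (56.8%) and in 7 of the other 1332. The central 31 bases occurred a median of 750 times in hg38, and 101 regions (9.16%) had a single copy. Reads from sequence with many copies may fit several of them, and how many reads could be placed on 1 copy was not measured. How the authors treated reads with several placements is not stated in the sources used here. Of the class, 1097 regions lay between genes and 6 in introns, and 0 overlapped an H3K27ac peak or an enhancer, which allows a share of up to 0.347% (Wilson).

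These regions were packed tightly as placed on hg38. Because their sequence mostly has many copies there, the gaps, bins and densities below describe listed positions in the reference. Which copies the reads came from is unknown. The median gap between neighbours of the class was 22548 bp, against 744383 bp for distal regions without H3K27ac and 5448320 bp for promoter regions. Among 3102 bins of 1 Mb, 46 (1.48%) held 10 or more regions and together 993 (40.8% of the list), of which 894 (90.0%) were alpha-satellite-like and 2 were at promoters. The 5 densest bins were chromosome 19 from 25 to 26 Mb with 63 regions, chromosome 2 from 93 to 94 Mb with 59 and from 92 to 93 Mb with 54, chromosome 5 from 47 to 48 Mb with 54, and chromosome 9 from 44 to 45 Mb with 48. All but 1 of the regions in these bins were alpha-satellite-like. By chromosome, chromosome 19 had the highest density of the class (124 regions, 2.12 per Mb) and chromosome 18 the next (97, 1.21 per Mb), against 0.375 per Mb of the genome. Chromosome 6 had 1 such region.

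**Figure D5:**
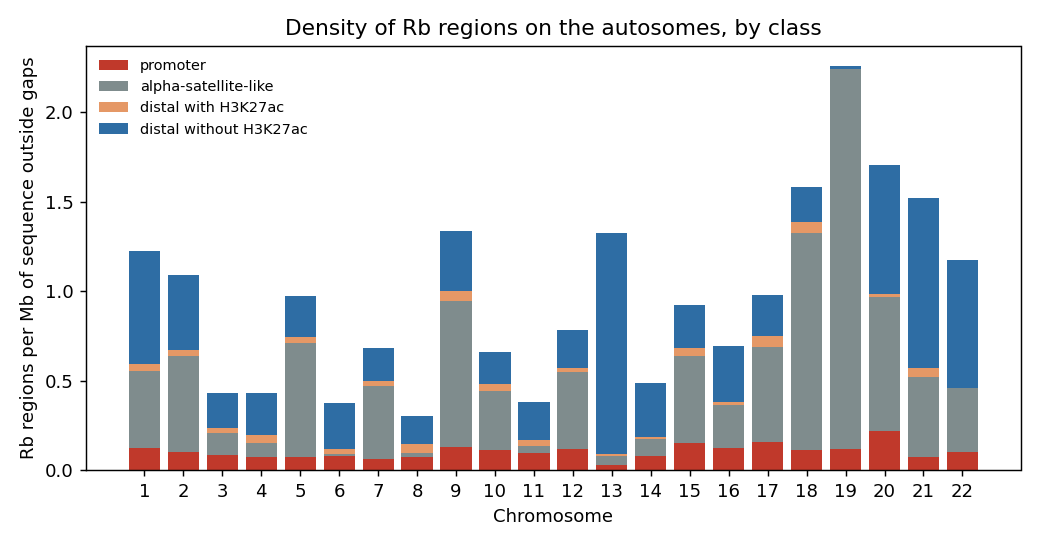
Stacked bars give Rb regions per Mb of sequence outside gaps on each autosome (y axis), by class. Chromosome 19 is highest through its alpha-satellite-like regions (2.12 of 2.26 per Mb), and chromosome 13 is high through distal regions without H3K27ac (1.23 of 1.33 per Mb).

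The distal regions without H3K27ac were AT-rich, narrow and mostly far from coding start sites. Of the 956, 652 (68.2%) had under 35% GC in 500 bp, against 23.7% of genome windows. Their median width was 209 bp, against 257 bp for promoter regions and 303 bp for alpha-satellite-like ones. A width under 200 bp, the shortest fragment the authors aimed for, was found in 450 (47.1%), against 48 promoter regions (17.0%) and 238 alpha-satellite-like regions (21.6%). The central 31 bases were unique in hg38 for 698 (73.0%). An exact match misses repeat copies that differ within those bases, and no annotation of repeats was used, so the share of repeat sequence is unknown. The median distance to a coding start site was 217206 bp, against 68488 bp for points every 10 kb of the genome that lay over 2 kb from one. Of the regions, 629 (65.8%) were over 100 kb away and 173 (18.1%) over 1 Mb, against 42.0% and 5.33% of those points. By annotation 398 were in introns and 34 in exons of genes of any kind, and 524 between genes.

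Long stretches with few genes held many of them. Chromosome 13 had 121, or 1.23 per Mb against 0.325 for the genome. Among windows of 20 Mb, the one with the most regions of the class was chromosome 13 from 63 to 83 Mb, with 72 of the 121 and with start sites of 30 coding genes. A window of this length holds 134 coding genes on average over the genome. The next was chromosome 1 from 180 to 200 Mb, with 61 of the 145 on that chromosome and 73 coding genes. Promoter regions at BRINP3, GLUL, PTPRC and RNF2 lay in that same window. The third was chromosome 13 from 83 to 103 Mb, with 38 regions and 46 coding genes, and the fourth was chromosome 21 from 3 to 23 Mb, with 36 of 38 and 14 coding genes. Assembly gaps, which hold no genes, were not subtracted from these windows. The fifth, chromosome 1 from 142 to 162 Mb, held 33 regions but 403 coding genes, so few genes were not a feature of every such window. The window rule was chosen after the positions were seen. Chromosome 19, which is gene-rich, had 1 region of the class.

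Coding genes held 237 of the 956 regions (24.8%), and such genes cover 44.4% of the genome. The 213 host genes had a median length of 216 kb, against 27.5 kb for all coding genes, and 51 (23.9%) were longer than 500 kb, against 1.61%. A long gene offers more sequence to hold a region, so the lengths are given as a description. GPC5, a glypican on chromosome 13, held 7, PCDH9, a protocadherin on the same chromosome, 6, HMCN1 4, and KLHL1 and KMT2C 3 each. In all, 17 genes held 2 or more.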

How the data were processed

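ChIP-seq of H3K27ac and CTCF (3 libraries per state), H3K4me1 and Rb (2 per state) and their inputs made up 40 libraries of EndoC-βH3 cells. Per the study's methods, the authors aligned trimmed reads to hg38 with Bowtie2, removed duplicates from the Rb reads with samtools, and called Rb regions with MACS2 on the senescent libraries with the non-senescent ones as control, at an unadjusted p of 0.01. Tool versions and the way libraries were combined are not given in the sources used here. The authors set sonication to give fragments of 200 to 700 bp. The deposited lists of Rb regions and enhancers hold positions alone. The deposited H3K27ac and CTCF tables give each peak a signal, the authors' mean count over the libraries of both states after DESeq2 scaling. They also hold the authors' own comparison of the states (log2 fold change, its error, Wald score and p-values), which was not used. The depth of the libraries is unknown.

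All 24 chromosome names matched hg38 and 0 regions ended beyond a chromosome. Positions were overlapped by at least 1 bp. A region was counted as promoter when it came within 2 kb of where a protein-coding transcript of GENCODE 44 starts. Alpha-satellite-like regions had a self-match above 40%, a threshold set after the values were seen. Copies were exact 31-base matches on both strands. The scripts (Python 3.11.15, numpy 2.4.6, pandas 2.3.3, scipy 1.17.1) were tested on simulated data. Regions are not replicates and no value per library was given, so shares were described with 95% Wilson intervals and no difference was tested. Most were set beside the share of the genome, of promoters or of genes, but the alpha-satellite-like share was not. The regions and gene lists were chosen with earlier results of these data known. Of the listed genes, 1 matched no protein-coding gene. Genes were named by rule: list genes with an Rb region, the 15 widest promoter regions, genes with 2 or more regions, the 10 others with the highest H3K27ac mean count, and the 5 densest bins.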

Additional observations from a re-analysis of the deposited data

How the results depend on the processing

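No paired analysis was possible because the files hold no value per library, so the fit with a replicate block and leaving out each replicate in turn were not run. Of 26 alternatives, 11 left a value within its counting interval (for gene counts, within 1.5 times) and 15 moved it. The promoter windows of 1 kb and 5 kb were among the 11, and the 4 proliferation genes stayed 4 with both. The share of regions at promoters was 15.5% with the start sites of all annotated transcripts and 21.2% outside alpha-satellite-like sequence. Outside that sequence the share overlapping H3K27ac was 27.3%, the share overlapping CTCF 10.4% and, in an alternative added after seeing the data, the share in dense bins 3.53%. The CTCF share was 5.01% when at least 50% of the region had to be inside the peak and 7.68% when regions were widened by 500 bp. Among regions of 200 bp or wider, also added after seeing the data, the shares were 14.0% at promoters, 17.7% in H3K27ac peaks and 7.29% in CTCF peaks. The alpha-satellite-like share was 26.0% by a CENP-B box in the region and 24.97% at a self-match above 50%, added after seeing the data. The share in dense bins was 55.0% with 5 or more regions per Mb and 29.9% with 500 kb bins. E2F letters were in 15.6% of promoter regions when 250 bp on either side of the centre were read, against 9.85% of canonical start sites at the same length. Those start sites include ones without an H3K27ac peak, and the share for acetylated start sites alone was not counted at this length.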

Other observations

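Further genes with an Rb region at a start site were picked out after their positions were seen, and no theme was tested. They include CTCF itself, the insulator protein, with a region of 473 bp in an H3K27ac peak with an authors' mean count of 1503 and a CTCF peak of 393. DNMT3A, a DNA methyltransferase, had a region of 231 bp in a peak of 3027. RNF2, the ubiquitin ligase of Polycomb repressive complex 1, had one of 250 bp in a peak of 639.5, and KMT5B, a methyltransferase of histone H4, one of 327 bp over its start site in a peak of 2075. The replication-dependent histone gene H4C6 had a region of 325 bp, 200 bp from its start site, in a peak of 575. The stress kinase gene MAPK8 had one of 300 bp over its start site (830.7), and DUSP5, a phosphatase of ERK, one of 260 bp in a peak of 673.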
